A study of Mus musculus with 6 samples.

Results

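Sall1, Msx1, Lhx9, Dlx5, Gsc, Mab21l1 and Mab21l2 are 7 mouse developmental regulator genes known for expression in distal or patterned limb mesenchyme. They were taken by gene symbol from a deposited table of 13158 genes, which held all 7. They were chosen by symbol with their counts in the distal and proximal libraries in view, so the differences between regions of these 7 genes are given as a description, without p-values. The libraries came from C57BL/6 mouse forelimbs at embryonic day 13.5, labelled wild-type and untreated, and each sort kept cells that carried both a tdTomato lineage label made by Sox9-CreERT2 at the Rosa26 locus and the tendon reporter ScxGFP. There were 3 libraries from the distal and 3 from the proximal forelimb, made by bulk MARS-seq, which reads only the 3′ ends of transcripts. All animals in both groups carried the same alleles, and the time at which CreERT2 was induced is not stated in the sources used. The labels do not say if the libraries of a region stem from different embryos, and p-values therefore reflect only library-to-library spread, possibly technical. In bulk libraries, fewer cells of a type and less RNA per cell cannot be told apart.

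The 7 genes fall into several protein families. Msx1, Dlx5, Lhx9 and Gsc (goosecoid) encode homeodomain transcription factors, Lhx9 with LIM domains in addition. Sall1 encodes a zinc finger repressor that recruits the NuRD complex, and Mab21l1 and Mab21l2 encode closely related proteins of the MAB21 family, so 3 of the 7 are not homeobox genes. In the growing limb bud, FGFs from the apical ectodermal ridge and BMPs from ridge and mesenchyme keep the distal mesenchyme proliferating and patterned. MSX and DLX factors act downstream of BMPs, and LHX9 acts together with LHX2 and LMX1B in relaying ridge signals. Mutations of human SALL1 cause a syndrome with thumb and digit anomalies, and mouse Gsc mutants have defects of craniofacial and rib skeleton.

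The loci are spread over the genome (GENCODE M21, GRCm38, which is mm10). Sall1 lies at chr8:89027235-89044162, Msx1 at chr5:37820485-37824583, Lhx9 at chr1:138825186-138848577, Dlx5 at chr6:6877805-6882085 and Gsc at chr12:104471209-104473330, all on the minus strand. None of these 5 spans overlaps another annotated gene. Mab21l1 (chr3:55782510-55785001, plus strand) lies within Nbea, and Mab21l2 (chr3:86545581-86548629, minus strand) within Lrba, each on the strand opposite to its host. RefSeq promoter sequences (GRCm38.p6) matched 5 of the 7 genes, with 7 annotated starts in all. Those of Sall1, Gsc and Msx1 are shown because Sall1 and Gsc stood higher in every distal library and Msx1 did not. Each line is read 5′ to 3′ on the minus strand and holds only bases outside exons of protein-coding genes. The lines cover chr8:89044163-89044412 and chr8:89043513-89043762 before the outer start and an inner start of Sall1, chr12:104473331-104473486 for Gsc and chr5:37824586-37824835 for Msx1. Capitals mark GC boxes (GGGCGG on either strand).
Sall1 outer start: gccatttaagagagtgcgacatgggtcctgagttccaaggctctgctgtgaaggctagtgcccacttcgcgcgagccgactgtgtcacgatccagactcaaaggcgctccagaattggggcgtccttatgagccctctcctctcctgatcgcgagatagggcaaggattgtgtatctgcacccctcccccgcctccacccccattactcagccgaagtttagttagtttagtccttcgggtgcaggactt
Sall1 inner start: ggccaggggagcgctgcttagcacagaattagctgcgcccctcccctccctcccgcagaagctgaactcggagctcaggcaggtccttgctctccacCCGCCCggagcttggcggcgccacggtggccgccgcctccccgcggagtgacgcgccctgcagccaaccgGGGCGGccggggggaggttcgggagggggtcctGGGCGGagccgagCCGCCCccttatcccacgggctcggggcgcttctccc
Gsc: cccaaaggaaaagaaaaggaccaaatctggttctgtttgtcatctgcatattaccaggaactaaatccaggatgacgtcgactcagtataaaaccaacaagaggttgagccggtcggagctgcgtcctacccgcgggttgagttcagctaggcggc
Msx1: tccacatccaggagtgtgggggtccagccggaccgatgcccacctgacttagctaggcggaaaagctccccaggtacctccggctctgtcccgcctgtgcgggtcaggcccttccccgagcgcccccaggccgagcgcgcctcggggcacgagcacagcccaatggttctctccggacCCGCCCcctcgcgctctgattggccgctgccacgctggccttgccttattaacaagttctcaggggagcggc

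In the 250 bases before each start, the inner start of Sall1 shown here had 4 GC boxes, its innermost start 1, Msx1 1 and Gsc 2, at 79 and 51 bases before the RefSeq start and so downstream of the stretch printed. The outer start of Sall1, Lhx9 and Mab21l2 had none. Some windows held exonic bases of protein-coding genes in GENCODE: 94 of 250 for Gsc, 13 for Lhx9 and all 250 for Mab21l2. Both GC boxes of Gsc lie in such exonic bases. Among all 32851 promoters of the same length, 32.7% held a GC box. The homeodomain core TAATTA (4.84% of all promoters) and TTTATNG, a motif of posterior Hox factors (9.81%), were in none of the 7 promoters on either strand. TGACAG, bound by Meis factors (15.9% of all promoters), occurred in the Lhx9 promoter alone, at 125 bases before its start. The motif matches did not overlap each other.

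Total counts were 1585631 to 2143795 in distal and 1709551 to 2623788 in proximal libraries, so that a gene with no count could still be at up to 1.08 to 2.01 CPM (the value of 3 counts). CPM are counts divided by the library total after TMM scaling. Intervals on counts are exact, at the 95% level, and reflect counting error alone. Of 9512 genes tested between regions by edgeR (quasi-likelihood, Benjamini-Hochberg threshold 0.05), 322 were called (3.39%). Of these, 106 stood higher in the distal (1.11%) and 216 in the proximal region (2.27%). The median log2 fold change of all genes tested, distal over proximal, was 0.0092. Libraries also differed across the regions. The deviations from the region means were correlated between distal libraries 1 and 2 and proximal library 1 (Pearson r across genes of 0.36 for both pairs), and between distal library 3 and proximal libraries 2 and 3 (0.28 and 0.48). The 45S pre-ribosomal RNA row took 4.63% to 11.7% of counts in the set of distal 1, distal 2 and proximal 1 and 2.20% to 2.98% in the set of distal 3, proximal 2 and proximal 3. Values within each of these 2 sets are therefore given with the results.

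Of the 7 genes, 4 separated the regions. Sall1, Gsc, Mab21l1 and Mab21l2 were higher in every distal library than in any proximal library, while Msx1, Lhx9 and Dlx5 overlapped between regions. All 7 passed the filter on low counts. Among all genes tested, 7.53% had every distal library above every proximal one and 1.11% were called higher in distal libraries. The same 4 of the 7 were past that threshold, a count that follows in part from the choice of the genes and from which nothing is read. None of the 7 had every proximal library higher, a pattern seen in 8.67% of all genes tested. Nothing is read from this either, since that share is low and the genes were chosen with these counts in view.

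**Figure D1:**
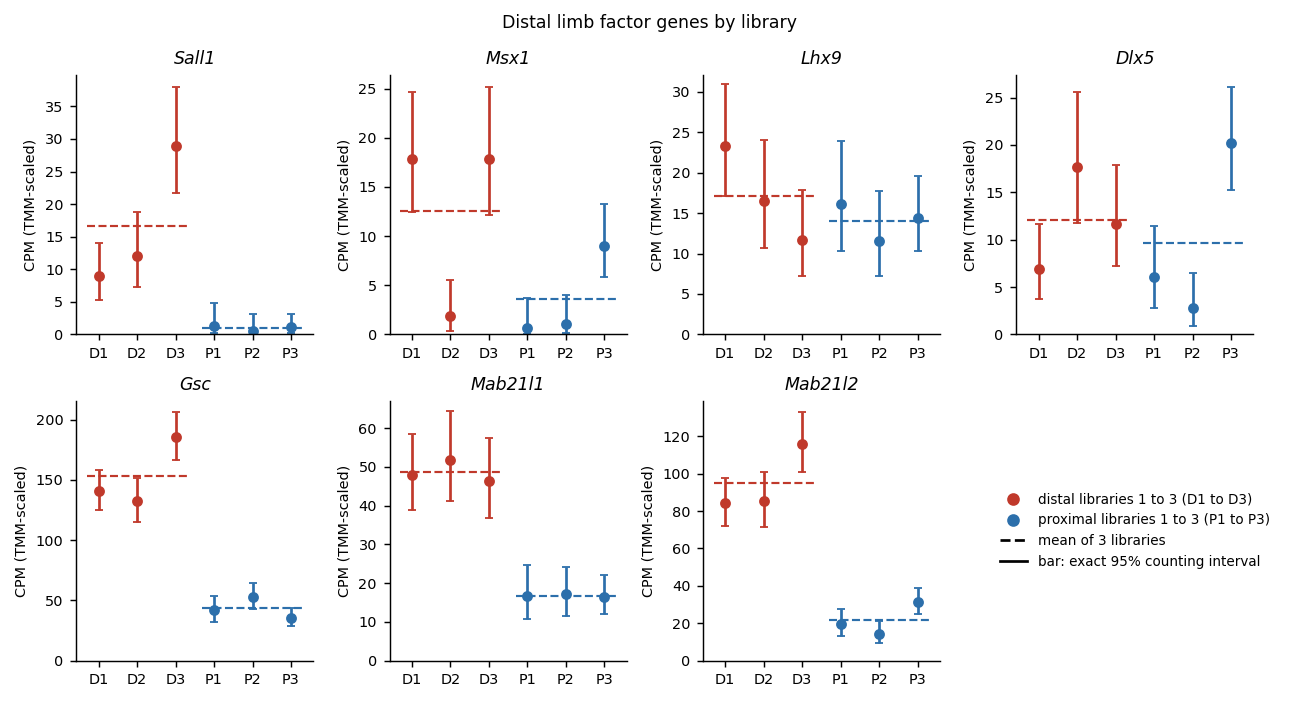
TMM-scaled CPM of the 7 genes in distal libraries 1 to 3 (D1 to D3, red) and proximal libraries 1 to 3 (P1 to P3, blue), 1 panel per gene with its own axis from 0. Points are libraries, bars exact 95% counting intervals and dashed lines region means; the regions separate for Sall1, Gsc, Mab21l1 and Mab21l2 and overlap for Msx1, Lhx9 and Dlx5.

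Sall1 had most of its counts in the distal libraries. It had 18, 19 and 52 counts in distal libraries 1 to 3, against 2, 1 and 3 counts in proximal libraries 1 to 3. In TMM-scaled units these were 8.91, 12.01 and 29.0 CPM in distal libraries, against 1.34, 0.552 and 1.08 CPM in proximal libraries. The regions did not overlap, and the proximal values were at or below the level of 3 counts in their libraries. The level in distal library 3 (exact 95% interval 21.6 to 38.0 CPM) was above those of distal libraries 1 (5.28 to 14.1) and 2 (7.23 to 18.8). The fitted log2 fold change was 3.99 (SE 0.63). The summed counts, 89 in distal and 6 in proximal libraries, gave a 16.7-fold ratio of distal over proximal (exact 95% interval 7.39 to 46.8). Without distal library 3 the log2 fold change was 3.31, and within the library sets the log2 ratio was 2.97 (distal 1 and 2 over proximal 1) and 5.15 (distal 3 over proximal 2 and 3).

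Gsc had the most counts of the 7 genes. It had 285, 209 and 333 counts in distal libraries 1 to 3 and 63, 96 and 99 counts in proximal libraries 1 to 3. This corresponds to 141, 132 and 186 CPM in distal libraries, a mean of 153 ± 28.6 (SD, n = 3), and to 42.2, 53.0 and 35.6 CPM in proximal libraries, a mean of 43.6 ± 8.77 (SD, n = 3). Every distal library was above every proximal one, and the counting intervals of the regions did not overlap. The log2 fold change was 1.82 (SE 0.21), a 3.52-fold difference, and it stayed between 1.66 and 1.98 when any single library was left out. Within the library sets the log2 ratios were 1.70 and 2.07. Proximal libraries were not free of the transcript, since Gsc was well above the level of 3 counts in all of them.

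The MAB21 genes are needed in the mouse for eye development, and Mab21l2 also for ventral body wall closure. Mab21l1 was measured at 48.0, 51.8 and 46.2 CPM in distal libraries 1 to 3, against 16.7, 17.1 and 16.5 CPM in proximal libraries 1 to 3. The 3 libraries of a region lay close together, with means of 48.7 ± 2.86 CPM in the distal region and 16.8 ± 0.29 CPM in the proximal region (SD, n = 3 each). Each of these levels carries a counting interval wider than the spread between the libraries of its region, for example 38.9 to 58.6 CPM in distal library 1. The log2 fold change was 1.53 (SE 0.20), with 1.48 to 1.57 over the fits with a library left out and 1.58 and 1.46 within the library sets. That range over the fits with a library left out was the narrowest of the 7 genes.

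Mab21l2 was at 84.1, 85.3 and 116 CPM in distal libraries 1 to 3, against 19.4, 14.4 and 31.3 CPM in proximal libraries 1 to 3. The regions did not overlap, and distal library 3 and proximal library 3 were the highest of their regions. The means were 95.1 ± 18.0 CPM in the distal region and 21.7 ± 8.70 CPM in the proximal region (SD, n = 3 each), a log2 fold change of 2.09 (SE 0.28) or 4.27-fold. It ranged from 1.87 without proximal library 2 to 2.5 without proximal library 3, and stood at 2.13 and 2.34 within the library sets.

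Because both MAB21 genes lie inside larger genes, the host genes were read beside them. Mab21l1 shares 981 of its 2492 annotated exonic bases with exons of Nbea, and Mab21l2 shares 1097 of 3049 with exons of Lrba. Whether the authors counted by strand is not stated in the sources used, so reads in the shared bases cannot be assigned with certainty. The last 500 exonic bases of each gene, where 3′ reads fall, share 0 bases with the host. Nbea, a neuronal trafficking gene, was at 17.8, 22.8 and 18.4 CPM in distal libraries, against 15.4, 21.0 and 20.1 CPM in proximal libraries, and did not pass the test (log2 fold change 0.04, SE 0.25; edgeR adjusted p = 0.99). Lrba, a vesicle trafficking gene, was at 28.7, 49.3 and 63.0 CPM in distal libraries 1 to 3, against 19.4, 18.8 and 22.7 CPM in proximal libraries 1 to 3. The regions did not overlap, but Lrba missed the threshold (log2 fold change 1.19, SE 0.29; edgeR adjusted p = 0.056), and it passed with DESeq2 (adjusted p = 0.017) and without distal library 1 (0.019), with 0.0030 to 0.23 over all alternatives. The part of the host genes in the MAB21 counts was not tested beyond these values.

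**Figure D2:**
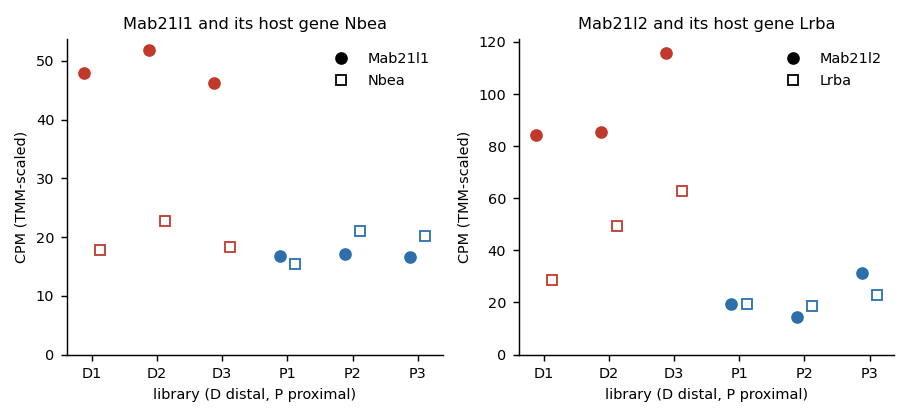
TMM-scaled CPM of Mab21l1 with its host gene Nbea (left) and of Mab21l2 with its host gene Lrba (right) in distal libraries 1 to 3 (D1 to D3, red) and proximal libraries 1 to 3 (P1 to P3, blue). Filled circles are the MAB21 genes and open squares the hosts; Nbea lies between 15.4 and 22.8 CPM in all 6 libraries, and Lrba is at 28.7 to 63.0 CPM in the distal region and 18.8 to 22.7 CPM in the proximal region.

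Msx1 varied within both regions. This homeodomain repressor of differentiation had 36, 3 and 32 counts in distal libraries 1 to 3 and 1, 2 and 25 counts in proximal libraries 1 to 3. Its levels were 17.8, 1.90 and 17.8 CPM in distal libraries and 0.669, 1.10 and 8.99 CPM in proximal libraries. Distal libraries 1 and 3 were above all proximal ones, distal library 2 was within counting error of proximal libraries 1 and 2, and proximal library 3 stood apart from the other proximal libraries. The log2 fold change was 1.58 (SE 0.84). It was 3.72 without proximal library 3, 1.19 to 2.06 without any other library, 0.89 when distal library 3 and proximal library 1 were both omitted, and 3.88 and 1.82 within the library sets.

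Dlx5, a homeodomain activator of bone and ridge development, overlapped between the regions. It was at 6.93, 17.7 and 11.7 CPM in distal libraries 1 to 3, against 6.02, 2.76 and 20.1 CPM in proximal libraries 1 to 3. The highest and the lowest values were both proximal. The summed counts, 63 in distal and 70 in proximal libraries, gave a ratio of 1.02 (exact 95% interval 0.71 to 1.45). The log2 fold change of 0.20 (SE 0.60) was 1.46 without proximal library 3 and -0.21 without proximal library 2. Proximal library 3 was thus the highest proximal library for both Msx1 and Dlx5. Msx2, the paralogue of Msx1, also had its highest value there, at 2.47, 0 and 2.79 CPM in distal libraries and 1.34, 4.97 and 8.99 CPM in proximal libraries.

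Lhx9 levels of both regions covered a similar range. It was at 23.3, 16.4 and 11.7 CPM in distal libraries 1 to 3, against 16.1, 11.6 and 14.4 CPM in proximal libraries 1 to 3. The ranges overlapped, with means of 17.1 ± 5.81 CPM in the distal region and 14.0 ± 2.26 CPM in the proximal region (SD, n = 3 each). The log2 fold change was 0.30 (SE 0.31), and the ratio of summed counts was 1.25 (exact 95% interval 0.92 to 1.69). Without distal library 1 the log2 fold change was 0.0057, and within the library sets it was 0.31 and -0.15.

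**Figure D3:**
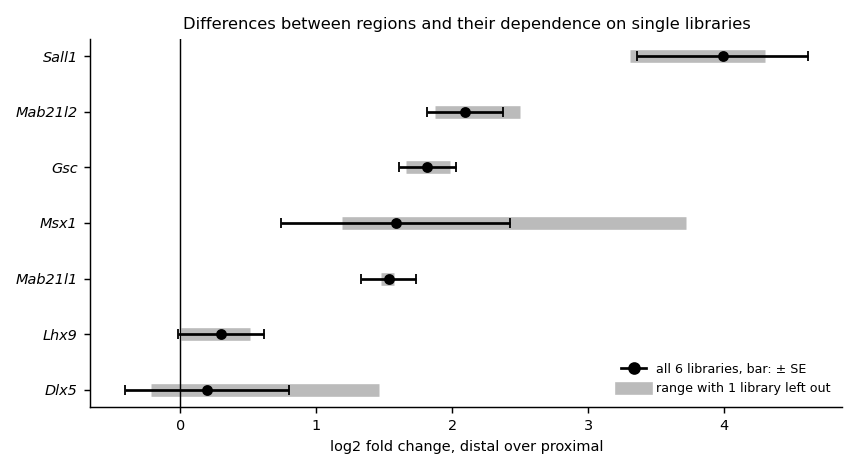
Log2 fold change of the 7 genes, distal over proximal, from the edgeR fit of all 6 libraries (points, bars ± SE) with the range over the 6 fits that each leave out 1 library (grey bands). Msx1 spans 1.19 to 3.72 and Dlx5 -0.21 to 1.46, while Mab21l1 stays within 1.48 to 1.57.

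Likeness to each of the 7 was measured as the root mean square difference between centred log2 CPM profiles over the 6 libraries. The candidates were 8682 tested genes whose mean log2 CPM reached 3, without the 7 and without genes of Gm or Rik symbols. Nearest to Sall1 were Hand2 (0.27), a basic helix-loop-helix factor of the posterior limb, then Gdf5 (0.45), the growth factor of forming joints, and Fam101a (0.52). Hand2 was at 128, 181 and 245 CPM in distal libraries 1 to 3, against 22.1, 15.5 and 17.6 CPM in proximal libraries 1 to 3, with distal library 3 highest as for Sall1. Among the nearest to Gsc were Glcci1 (0.20) and the noncoding RNA gene Dnm3os (0.23). For Mab21l1 they were Spsb4 (0.12), Homer2 (0.15) and Twist2 (0.17), a mesenchymal basic helix-loop-helix factor. For Mab21l2 they were the forkhead factor gene Foxc1 (0.20) and the cartilage matrix genes Matn4 (0.26) and Col2a1 (0.27).

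The genes nearest in pattern to the other 3 were as follows. Nearest to Msx1 were Pthlh (0.66), the hormone that holds back cartilage maturation, Plxna4 (0.68) and the cartilage collagen gene Col9a2 (0.68). Pthlh was at 28.2, 8.85 and 23.4 CPM in distal libraries 1 to 3, against 4.68, 2.21 and 7.91 CPM in proximal libraries 1 to 3. As for Msx1, distal library 2 was the lowest distal and proximal library 3 the highest proximal library. Unlike Msx1, the regions of Pthlh did not overlap. Nearest to Dlx5 were Prr5l (0.45), Nuak1 (0.45) and Angel1 (0.46), and nearest to Lhx9 were Rab27a (0.05), Lgalsl (0.06) and Socs3 (0.08). These distances describe 6 libraries only, and those of Msx1, Sall1 and Dlx5 carry more counting error than the others. The Lhx9 distances are small beside its own counting error, for example an exact 95% interval of 17.1 to 30.9 CPM in distal library 1. They do not make its matches firmer than those of the other genes. Among the 7 genes themselves, Gsc and Mab21l1 were nearest in pattern (0.29), and Sall1 and Lhx9 farthest apart (1.56).

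**Figure D4:**
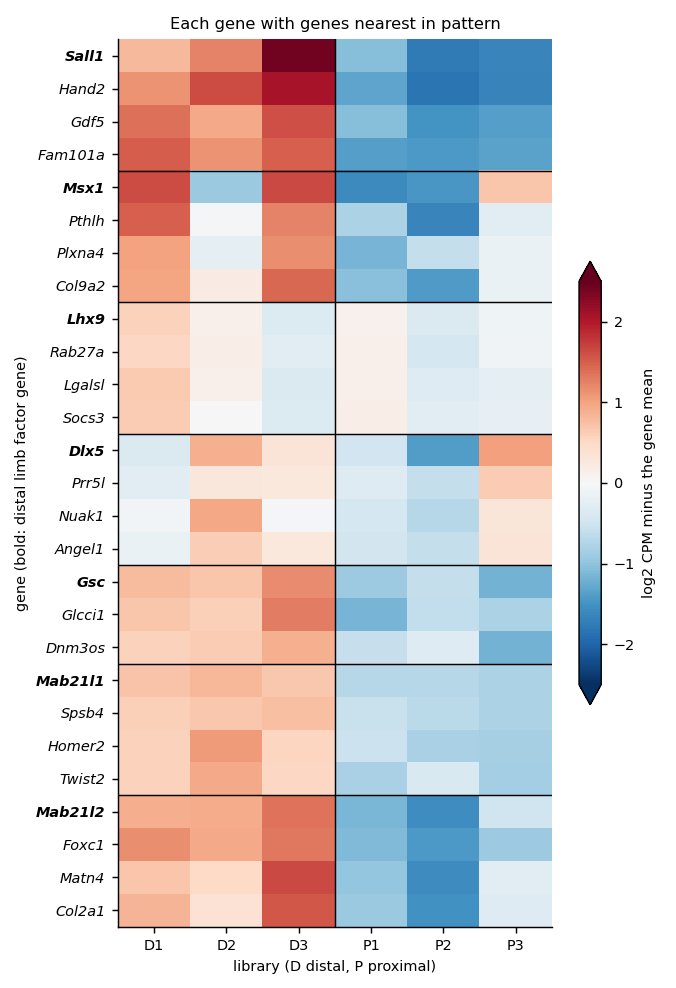
Log2 CPM minus the gene's mean (colour) in distal (D1 to D3) and proximal libraries (P1 to P3) for each of the 7 genes (bold) and 2 or 3 of the genes nearest in pattern. Sall1 and Hand2 are both highest in D3; Msx1 is low in D2 beside high values in D1 and D3.

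**Figure D5:**
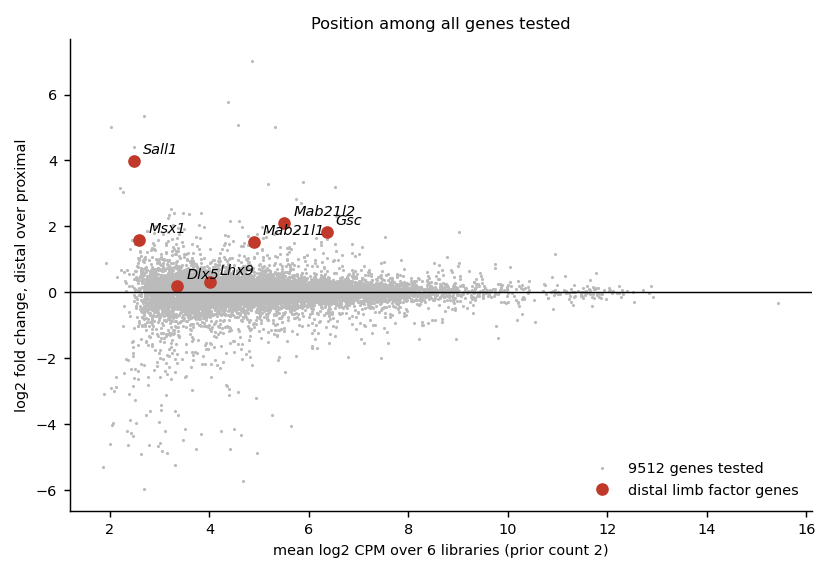
Log2 fold change, distal over proximal, against the mean log2 CPM over 6 libraries for all 9512 genes tested (grey) and the 7 genes (red, named). Sall1 stands at 3.99 among genes of low counts, Mab21l2, Gsc, Msx1 and Mab21l1 at 1.53 to 2.09, and Lhx9 and Dlx5 near 0.

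Relatives of these genes in their own families were mostly low. Of 25 listed SALL, MSX, LIM-homeobox, DLX, goosecoid and MAB21 relatives, 9 were deposited and 2 passed the filter on low counts. Neither Sall2 (log2 fold change 0.32, SE 0.22) nor Mb21d2 (0.65, SE 0.28) passed edgeR's test (adjusted p = 0.75 and 0.42), with 1 of them at an unadjusted p under 0.05, and DESeq2 called 1 of the 9 relatives. That gene is Lhx2, the paralogue that acts with Lhx9, and it was named after its values were seen. Lhx2 had 38, 9 and 30 counts in distal libraries 1 to 3, against 0, 1 and 1 counts in proximal libraries 1 to 3. The regions did not overlap, and the ratio of summed counts was 43.4 (exact 95% interval 11.6 to 365, since only 2 counts were proximal). With no filter on low counts its edgeR adjusted p was 0.0011 and with DESeq2 0.00030. The distal libraries ranked as for Msx1 at their low end, with Lhx2 lowest among distal libraries in distal library 2, at 5.69 CPM beside 18.8 and 16.7 CPM in distal libraries 1 and 3. Sall3 had 3, 4 and 13 counts in distal and 0, 2 and 3 counts in proximal libraries, a ratio of 4.51 (1.64 to 15.4). In CPM every distal library was higher, and Sall3 did not pass without the filter (edgeR adjusted p = 0.30). Other relatives had more counts in proximal libraries. Lhx8 had 3 counts in distal and 18 in proximal libraries, a ratio of 0.188 (0.0355 to 0.644), and Lmx1a 6 and 29 counts, a ratio of 0.233 (0.0792 to 0.572), both with every proximal library higher. The ratio of Msx2 was 0.313 (0.139 to 0.644), with overlapping regions. Isl1 had 14 counts in distal and 2 in proximal libraries, a ratio of 7.89 (1.81 to 71.5), with every distal library higher in CPM. Mab21l3 had 6 and 7 counts. With no filter on low counts, Lhx8, Lmx1a, Msx2 and Isl1 did not pass either (edgeR adjusted p = 0.225, 0.206, 0.465 and 0.249). Their ratio intervals leave out the spread between libraries.

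Partners of these factors did not pass edgeR's test. Of 9 tested cofactors of LIM-homeodomain proteins none passed (4 at an unadjusted p under 0.05, 0 called by DESeq2), among them Ldb1, the common LIM-domain partner (log2 fold change 0.16, SE 0.18), and Lmo4, a competitor for it (0.67, SE 0.18; edgeR adjusted p = 0.085, with 0.0072 to 0.34 over all alternatives). Of 12 tested NuRD subunits none passed either (1 at an unadjusted p under 0.05, 0 by DESeq2), with a median log2 fold change of -0.03. Of 18 tested BMP ligands, receptors, antagonists and response genes, only the antagonist Nog passed, higher in distal libraries (1.99, SE 0.40; edgeR adjusted p = 0.021), and its call was lost without distal library 1, without any 1 proximal library, and when distal library 3 and proximal library 1 were both omitted (up to 0.090 over all alternatives). DESeq2 called 4 of the list, Nog, Id1, Smad7 and Id4 (adjusted p = 8.09e-05, 0.022, 0.034 and 0.044). The median of that list was 0.27, with 16 of 18 values positive. Of 15 tested FGF genes, the receptor Fgfr2 was higher in distal libraries (1.03) and the ligand Fgf18 (-0.90) and the inhibitor Spry4 (-0.84) in proximal ones, with a median of -0.18. Each of these 3 calls lay near the threshold (edgeR adjusted p of 0.045, 0.046 and 0.045 for Fgf18, Fgfr2 and Spry4) and did not hold when any 1 library other than proximal library 1 was omitted, with values over all alternatives of up to 0.22, 0.19 and 0.21. DESeq2 called 3 of the list, Dusp6, Fgf18 and Fgfr2 (adjusted p = 0.015, 0.021 and 0.034), and not Spry4 (0.084). Dusp6 had every distal library higher without passing edgeR's test (log2 fold change 1.12, SE 0.28; edgeR adjusted p = 0.060, with 0.0021 to 0.27 over all alternatives). Fgf9 had every proximal library higher, also without passing (-1.47, SE 0.49; edgeR adjusted p = 0.21).

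Among other regulators of limb position, 7 of 13 tested distal limb genes passed, all higher in distal libraries, with a median log2 fold change of 2.16. Those with the smallest p were Hoxd11 (log2 fold change 5.01), Hoxa11 (5.77), Hoxd10 (5.07) and Hand2 (3.33). The list also held Hoxd12 and Hoxd13, expressed in the forming hand, which shared the rank of distal library 3 with Sall1. Hoxd12 was at 9.90, 28.4 and 51.3 CPM in distal libraries 1 to 3, against at most 1.34 CPM in proximal ones (log2 fold change 5.36, SE 0.82; edgeR adjusted p = 0.0055). Hoxd13 was at 6.93, 6.95 and 54.0 CPM in distal libraries 1 to 3, against at most 1.34 CPM in proximal ones, and missed the threshold (edgeR adjusted p = 0.068, with 9.87e-06 to 0.24 over all alternatives). Of 40 tested homeobox genes outside the Hox clusters, with the 7 genes and their relatives left out, 1 was higher in distal libraries and 8 in proximal ones, and the median was -0.20. The single distal call was Shox2 (1.24, SE 0.27; edgeR adjusted p = 0.034), which was lost without distal library 2, without any 1 proximal library and with a term for the library set. Among the proximal calls were Meis1 (-3.11), Meis2 (-2.84) and Irx3 (-3.74). Of 16 tested proximal limb genes, 11 were higher in proximal libraries and 1, Shox2, in distal ones. This list shares genes with the homeobox list, among them Meis1, Meis2, Irx3 and Shox2, so the counts of the 2 lists are not separate.

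The sorted cell type was checked against its markers. All 10 listed markers of cartilage, tendon and limb mesenchyme were deposited, and their summed level was 4020 to 6000 CPM in the distal region and 1960 to 2570 CPM in the proximal region. Scx alone made 2416 to 4122 CPM of the distal sums and 949 to 1643 CPM of the proximal sums. Of the 10, 5 passed edgeR's test, all higher in distal libraries. The tendon gene Tnmd and the mesenchymal factor gene Twist1 had every proximal library higher, without passing (log2 fold changes -1.89 and -0.49; edgeR adjusted p = 0.100 and 0.17), and DESeq2 called Tnmd (adjusted p = 0.036). The genes whose regulatory regions drive the labels were higher in distal libraries, Sox9 by 1.68 (SE 0.18; edgeR adjusted p = 0.00060) and Scx by 1.15 (SE 0.25; edgeR adjusted p = 0.034), the Scx call being lost without distal library 1, proximal library 2 or proximal library 3. Of 12 skeletal muscle markers 8 were deposited, with a sum of 40.7 to 56.4 CPM in the distal region and 217 to 622 CPM in the proximal region. Of 12 markers of ectoderm and apical ridge, tissues that also express Msx1 and Dlx5, 6 were deposited, with a sum of 63.5 to 85.1 CPM in the distal region and 71.6 to 95 CPM in the proximal region, of which Krt18 made 46.2 to 75.7 and 58.9 to 72.3 CPM. Fgf8, on the same list, was at 5.94, 19.6 and 12.3 CPM in distal libraries 1 to 3. Its values in proximal libraries 1 to 3 were 8.03, 13.8 and 14.0 CPM. Trp63, Cdh1, Sp6 and Sp8 were not analysed here, and Krt14 was at most 1.67 CPM in any library. Of 6 endothelial markers 5 were deposited (3.46 to 10.6 CPM in the distal region and 4.68 to 10.5 CPM in the proximal region), of 10 blood markers 4 (0 to 2.79 and 4.32 to 6.07 CPM) and of 7 nerve and Schwann markers all 7 (36.6 to 60.7 and 16.9 to 34.2 CPM), the last led by Stmn2. The part of these cell types in the values of the 7 genes was not tested.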

How the data were processed

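RNA of sorted forelimb cells was measured in 6 libraries. The authors deposited raw counts per gene and normalized counts, whose signal equals the counts over 1 factor per library (within a relative tolerance of 1e-06). Tools listed in the submitters' processing notes, without roles, are TopHat2, HTSeq, DESeq2, cutadapt 1.8.3 and bcl2fastq 2.17.1.14, and the build is mm10. The sources used here give neither the annotation, the strand setting nor whether molecular identifiers were counted. Only the counts entered the tests. Row Rn45s was kept. No column belonged to another series.

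Counts were analysed with edgeR 4.0.16 in R 4.3.3: TMM, filterByExpr by region (minimum count 10, total 15; 9512 of 13158 genes kept), and the robust quasi-likelihood F test with region as the only term, Benjamini-Hochberg adjustment and a threshold of 0.05. Fold changes are distal over proximal, with the SE derived from the fold change and F. Log2 CPM used a prior count of 2. The 7 genes, the lists and the alternatives were chosen with earlier results of these data known. Named were all 7 genes, relatives passing the filter, up to 4 genes of a list with the smallest p among those past the threshold, the 3 genes nearest in pattern, host genes and markers; some genes that this rule names are not reported here. Lhx2, Msx2, Sall3, Lhx8, Lmx1a, Isl1, Mab21l3, Id1, Id4, Smad7, Dusp6, Fgf9, Hoxd13, Ldb1, Lmo4 and Hoxd12 were added after their values were seen. DESeq2 1.42.0 was an alternative. The procedure was tested on simulated data.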

Additional observations from a re-analysis of the deposited data

How the results depend on the processing

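The directions of Sall1, Gsc, Mab21l1, Mab21l2, Msx1 and Lhx9 were positive in all 14 alternatives. Dlx5 was not: its log2 fold change was -0.21 to 1.46 with a library left out (-0.03 without proximal library 1, -0.17 without distal library 2) and -0.052 when distal library 3 and proximal library 1 were both omitted, an alternative added after seeing the data. Sall1 and Msx1 moved to 3.31 and 3.72 without distal library 3 and proximal library 3. The count of 322 genes past the threshold was 171 to 334 with a library left out (171 without distal library 1, 174 without proximal library 2, as 42 distal-high and 132 proximal-high genes, 190 without proximal library 3 and 210 without distal library 2), 862 when distal 3 and proximal 1 were both omitted (441 distal-high, 421 proximal-high) and 535 with a term for the library set (214 and 321), which was also added later. The relatives past the threshold numbered 1 with no filter, 1 with DESeq2, 1 with Rn45s left out (also added later), 2 without distal 3 and proximal 1 and 0 to 1 with a library left out. The other distal limb genes gave 6 to 10 calls and the other homeobox genes 6 to 13. The titles carry the same 3 tag numbers in both regions, and the labels do not say what these mark. They were not taken to pair the libraries in the main fit. Same-numbered libraries had correlations of 0.36, -0.13 and 0.48 between deviations from region means. In addition, 1 of the distal libraries did not correlate best with its own number. With 3 libraries per region that also differ by library set, these correlations cannot decide if the numbers mark pairs. The replicate block gave 465 calls (184 distal-high, 281 proximal-high), and with it Hoxd13, Lrba and Lmo4 passed (edgeR adjusted p = 0.0018, 0.012 and 0.027). Id1, Pthlh, Tnmd and Dusp6 also passed with it (edgeR adjusted p = 0.00077, 0.0057, 0.025 and 0.035). Counts of 1 to 3 per library limit Sall1 in the proximal libraries and Msx1 in proximal libraries 1 and 2. The cause of these changes was not tested.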
